A study of Homo sapiens with 4 samples.

Results

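The genes named ZNF, for zinc finger, were followed in 4 bead arrays of prostate cancer cells, a human line spelled DU154 in the labels. A gene was taken as a member if its symbol is ZNF followed only by a number and an optional letter, if it is not a pseudogene, and if a probe of it was detected. Detected means a detection p-value under 0.01 on 2 or more of the 4 arrays. Of 472 such genes with a probe among the deposited normalized values, 278 met this rule, out of 13786 tested features in all, and the brightest detected probe stood for each gene. The other 194 were not detected on 2 arrays and were not tested, 22 of them being detected on 1 array and 172 on none. Of the members, 15 had a best probe detected on 2 arrays, 19 on 3 and 244 on all 4.

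The labels place 2 arrays, replicates 1 and 2, in a group named mH2A1.2_KO and 2 in a wild type group. In the first group, per the series' design text, the cells were depleted of mH2A1.2, which is one of the splice forms of the histone macroH2A1. The method of depletion is not stated in the sources used here. Both groups are the same cell line, with no treatment given, and whether the replicates were separate cultures is not stated. The p-values therefore rest only on the spread among these arrays, and that spread may be technical.

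Most ZNF genes encode transcription factors built from a row of C2H2 zinc fingers, small folds in which cysteines and histidines hold a zinc ion and which read DNA sequence. Many also carry a KRAB domain, which binds the corepressor TRIM28 and through it the methyltransferase SETDB1 and HP1 proteins, so that the bound site is packed into heterochromatin. KRAB zinc finger genes arose by repeated duplication, lie in clusters with the largest number on chromosome 19, and are known for silencing transposable elements. MacroH2A1 is itself a component of repressed chromatin. The symbol ZNF also names a few proteins of other kinds, such as ZNF185, which has a LIM domain.

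All 5 epithelial markers (EPCAM, KRT8, KRT18, KRT19 and CDH1) were detected on all 4 arrays, and 0 of 5 luminal prostate markers, 0 of 4 endothelial markers, 1 of 5 fibroblast markers and 2 of 5 leukocyte markers (CD14 and CD68) were detected. MACROH2A1, the gene of the depleted variant, had a log2 signal of 11.97 and 11.83 in mH2A1.2_KO, against 13.02 and 12.91 in wild type, at its brightest probe. The difference was -1.07 ± 0.16 (SE, 2 arrays per group; adjusted p = 0.2505 by limma over all features), while 2 other detected probes gave -1.02 ± 0.17 and 0.62 ± 0.24. With the mean over probes it was -0.487, and with the names of the raw table's header -0.12. Which of these probes, if any, is specific to mH2A1.2 is not annotated. The 2 deposited tables disagree on the names of 2 arrays. The array that is mH2A1.2_KO replicate 1 in the normalized table is wild type replicate 2 by the header of the raw table, and the reverse, and the normalized table was followed. At each of the MACROH2A1 probes above, the groups did not overlap by the normalized table's names. By the raw header's names they overlapped at each of these probes. The source of the disagreement was not tested. Both tables place mH2A1.2_KO replicate 2 and wild type replicate 1 alike, and results of the family, its clusters and lists and the leading genes are also given between these 2 arrays, called the undisputed pair. A difference within that pair has no replicate check.

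The ZNF genes leaned towards lower signals in mH2A1.2_KO. The mean of the mH2A1.2_KO arrays was below that of wild type for 191 members and above it for 87, so that 68.7% were lower, where 52% of all features were. The median log2 difference, mH2A1.2_KO minus wild type, was -0.085 over the members, with a middle range from -0.21 to 0.026, and -0.011 over all features. In bulk RNA a smaller amount per cell and fewer expressing cells cannot be told apart. Both mH2A1.2_KO arrays lay below both wild type arrays for 82 members, or 29.5%, where the share of all features was 18.7%. Both lay above for 16 members, or 5.76%, where the share of all features was 17.1%. The arrays of the other 180 overlapped between groups.

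No single gene of the family passed the test. limma, fitted across all features with Benjamini-Hochberg adjustment, called 0 of the 278 at an adjusted p under 0.05, where it called 0% of all features. The lowest adjusted p in the family was 0.31. At an unadjusted p under 0.05 there were 7 lower members, where 3.35% of all features were lower, and 2 higher members, where 4.37% were higher. In size the differences were near those of the whole array: 0 members differed by 2-fold or more, where 0.791% of all features did, and 184 of 278 (66.2%) by less than 0.2 on the log2 scale, where 64% did. Among the 82 that lay lower without overlap the difference ran from -0.62 to -0.046, with a median of -0.24.

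**Figure D1:**
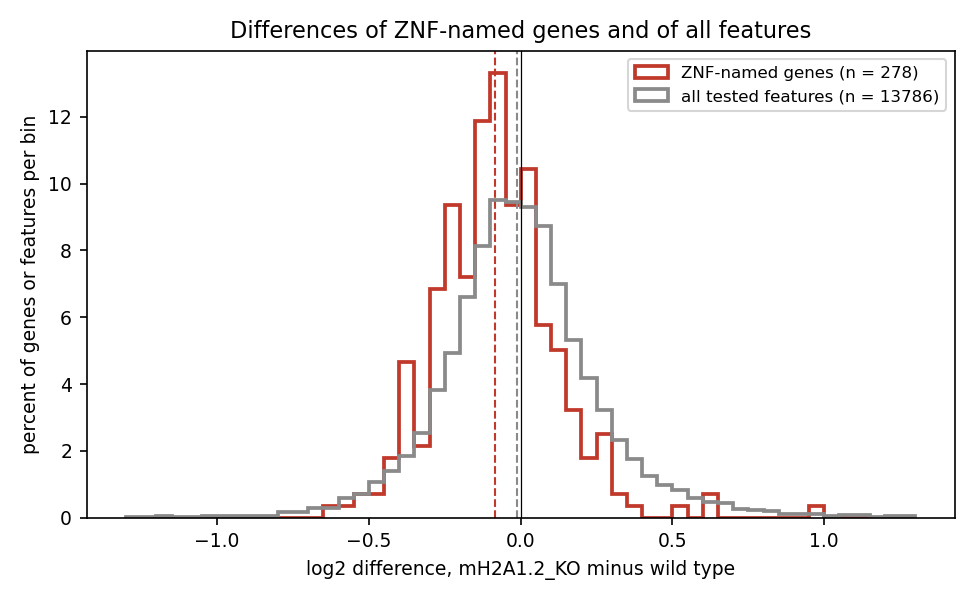
Share of genes in each bin of log2 difference (mH2A1.2_KO minus wild type, horizontal axis) for the 278 ZNF-named genes and for the 13786 tested features, with dashed lines at the medians. The ZNF outline is shifted to the left, with a median of -0.085 against -0.011.

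The lean was not equal between arrays. mH2A1.2_KO replicate 1 was the lowest of the 4 arrays for 131 members, or 47.1%, where it was so for 24.0% of all features, and mH2A1.2_KO replicate 2 was the lowest for 45. Wild type replicate 2 was the highest for 128 members, or 46.0%, where it was so for 28.7% of all features, and wild type replicate 1 was the highest for 65. Replicate 1 of mH2A1.2_KO and replicate 2 of wild type are the arrays whose names the tables exchange. Members detected on each array numbered 251 and 268 in mH2A1.2_KO, against 274 and 269 in wild type. The part of the number of detected members in the lean was not tested.

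Taken 1 array at a time, mH2A1.2_KO replicate 1 was lower than wild type replicate 2 for 77.0% of members and lower than wild type replicate 1 for 69.1%. mH2A1.2_KO replicate 2 was lower than wild type replicate 2 for 63.3%. Between mH2A1.2_KO replicate 2 and wild type replicate 1 the lean was not seen, with 47.1% of members lower and a median difference of 0.036, where 48.8% of all features were lower. Within groups the members differed as well: mH2A1.2_KO replicate 2 was lower than replicate 1 for 25.5%, and wild type replicate 2 was lower than replicate 1 for 38.1%. The median difference within mH2A1.2_KO, replicate 2 minus replicate 1, was 0.13, and within wild type 0.095, both larger in size than the median between groups. The shift of the family was thus not larger than its shift between replicates. Without mH2A1.2_KO replicate 1 the median between groups was -0.018, and without mH2A1.2_KO replicate 2 it was -0.16. With the names of the raw table's header the median was 0.13 and 27.7% of members were lower.

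**Figure D2:**
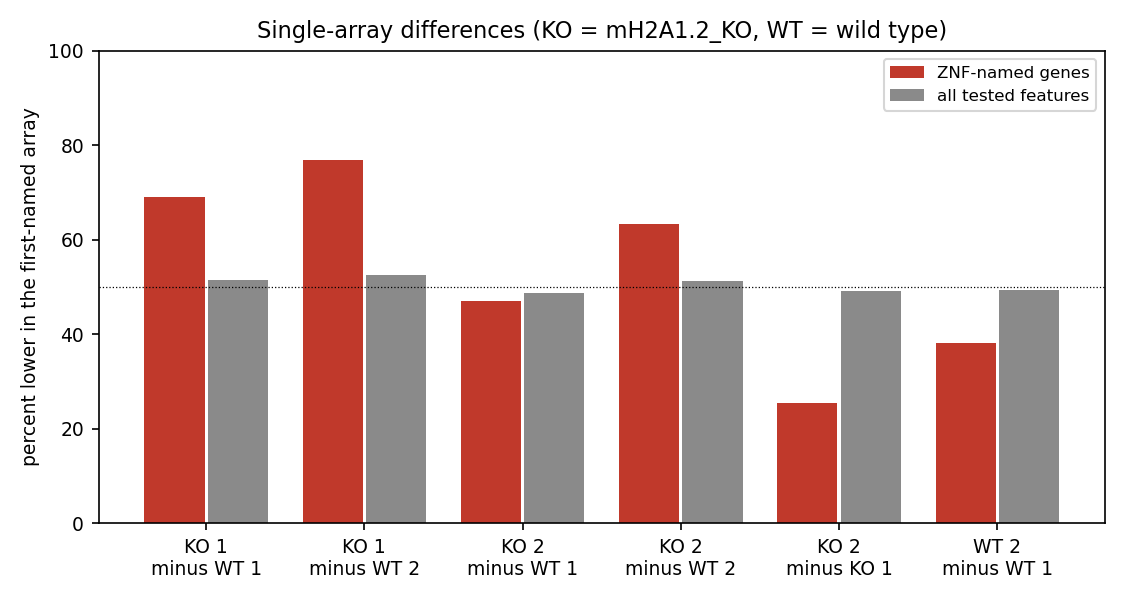
Percent of ZNF-named genes and of all tested features that were lower in the first-named array of each pair (vertical axis), for the 4 pairs between groups and the 2 pairs within groups. The ZNF share runs from 77.0% for KO 1 minus WT 2 to 25.5% for KO 2 minus KO 1, and is 47.1% for KO 2 minus WT 1, while all features stay near 50%.

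The lean was measured at every level of probe signal. Of members with a mean log2 signal under 7.5, 69.6% were lower (103 of 148), where 50.02% of all features in that range were. Between 7.5 and 8.5 it was 68.6% (48 of 70) against 52.5%, and above 8.5 it was 66.7% (40 of 60) against 53.1%. Of the 243 members whose chosen probe was detected on all 4 arrays, 71 lay lower without overlap (29.2%) and 15 higher (6.17%), where 18.98% and 17.3% of all features so detected did. Of 51 members read by several detected probes, the probes of 36 shared a direction, 28 of them lower and 8 higher. Probes of a gene read the same 4 arrays, and this count was not made over all features.

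Higher signals in mH2A1.2_KO were led by ZNF185. This gene encodes a LIM domain protein that associates with the actin cytoskeleton, and it is known as a gene silenced by promoter methylation in prostate cancer. Its log2 signal was 9.04 and 9.06 in mH2A1.2_KO, against 8.20 and 8.0 in wild type. The 2 mH2A1.2_KO arrays stood close together and clear of the wild type arrays. The difference was 0.95 ± 0.16, or 1.93-fold, with an adjusted p of 0.31 by limma over all features. When 1 array was left out it ran from 0.85 to 1.05, and the raw header's array names gave -0.086. Between the undisputed pair it was 0.87, where the lack of overlap fixed the direction.

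ZNF580, a short C2H2 protein, followed. It had 8.47 and 8.57 in mH2A1.2_KO, against 7.78 and 7.98 in wild type, a difference of 0.64 ± 0.16 with an adjusted p of 0.46. Its second probe, which was dimmer, measured 0.021 ± 0.152, so the probes of this gene disagree. ZNF467, a C2H2 factor studied in the choice between bone and fat cell fates, had a mean difference of equal size (0.64 ± 0.37) on scattered arrays. It measured 8.70 and 8.06 in mH2A1.2_KO, against 8.23 and 7.25 in wild type. Its groups overlap, and the difference was 0.15 without wild type replicate 2 and 1.13 without wild type replicate 1. In the undisputed pair it was -0.17, the other direction.

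The other members among the 12 highest without overlap differed by at most 0.35. ZNF512B measured 7.17 and 7.33 in mH2A1.2_KO, against 6.74 and 7.06 in wild type (0.35 ± 0.18). ZNF821 (0.29), ZNF688 (0.28), ZNF444 (0.27), ZNF425 (0.26) and ZNF446 (0.23) came next. Several of these rested in good part on 1 array. Without wild type replicate 1, ZNF512B measured 0.19, ZNF688 0.16 and ZNF446 0.11. ZNF821 was 0.16 without wild type replicate 2 and ZNF444 0.098 without mH2A1.2_KO replicate 2. ZNF281, a regulator of pluripotency genes and of epithelial-mesenchymal transition, differed by 0.21 and by 0.023 without wild type replicate 2. ZNF212 (0.15), ZNF226 (0.15) and ZNF326 (0.14) closed the group. ZNF226 was 0.053 without wild type replicate 1 and ZNF326 0.064 without mH2A1.2_KO replicate 2. ZNF326 is a subunit of the DBIRD complex, which couples transcript elongation to splicing, and it was detected on 1 of 2 mH2A1.2_KO arrays. These 12 genes were chosen for not overlapping, so their common direction, in the undisputed pair too, carries no support of its own. Between that pair they ran from 0.021 for ZNF281 to 0.87 for ZNF185, with ZNF580 at 0.79, ZNF512B at 0.59 and ZNF444 at 0.50.

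ZNF589, a KRAB zinc finger gene studied in blood stem cells, had the lowest difference. It measured 6.28 and 6.73 in mH2A1.2_KO, against 7.0 and 7.25 in wild type. The arrays did not overlap, and the probe was above background on 1 of 2 mH2A1.2_KO arrays. The difference was -0.62 ± 0.21 (adjusted p = 0.554), its second probe gave -0.26 ± 0.17, and it was -0.40 without mH2A1.2_KO replicate 1. ZNF615, a KRAB zinc finger gene of chromosome 19, measured 6.92 and 7.18 in mH2A1.2_KO, against 7.56 and 7.70 in wild type. Its difference was -0.58 ± 0.17 with an adjusted p of 0.497, the lowest among the lower members.

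ZNF84, a KRAB zinc finger gene, had 7.73 and 7.63 in mH2A1.2_KO, against 8.53 and 7.87 in wild type. Here wild type replicate 1 stood high, and the difference of -0.52 ± 0.24 was -0.19 without it. ZNF25 had 7.27 and 7.40 in mH2A1.2_KO, against 7.98 and 7.72 in wild type, a difference of -0.52 ± 0.17. ZNF280C had 7.79 and 7.81 in mH2A1.2_KO, against 8.34 and 8.20 in wild type, a difference of -0.46 ± 0.16. For both of these genes the gap between groups was wider than the gap between replicates.

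ZNF213, which joins a SCAN to a KRAB domain, gave -0.44, with 7.03 and 7.02 in mH2A1.2_KO, against 7.36 and 7.58 in wild type. The others among the 12 lowest were ZNF695 (-0.44), ZNF618 (-0.44), ZNF558 (-0.42), ZNF195 (-0.39), ZNF45 (-0.39) and ZNF585A (-0.38). ZNF195 rested on wild type replicate 2, and its difference was -0.070 without that array. ZNF618 was -0.25 without the same array, and ZNF45 was -0.22 without mH2A1.2_KO replicate 1. Between the undisputed pair the 12 lowest ran from -0.90 for ZNF84 to -0.031 for ZNF195, with ZNF589 at -0.28, ZNF615 at -0.38 and ZNF618 at -0.089. The 12 were chosen for not overlapping, so their direction in that pair was fixed and carries no support of its own. Adjusted p-values of the 12 ran from 0.497 to 0.832 by limma over all features.

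There were 5 members above background on both wild type arrays and on neither mH2A1.2_KO array (1.8%, where 1.39% of all features were). They were ZNF697, ZNF565, ZNF805, ZNF525 and ZNF48, chosen here after their values were seen. They met the detection rule through wild type alone, which fixed their direction, so their values are a description. By their group means they were 1.22-fold, 1.21-fold, 1.198-fold, 1.14-fold and 1.14-fold lower in that order. These are plain differences of means, not bounds. When 1 array was left out the log2 difference ran from -0.40 to -0.12 for ZNF805 and from -0.26 to -0.13 for ZNF525. In all, 22 members were detected on more wild type than mH2A1.2_KO arrays (7.91%, where 4.2% of all features were) and 3 the other way (1.08%, where 3.77% were). Over all probes wild type replicate 1 had the highest share detected, 38.9%, where the other arrays had 35.4% to 35.9%.

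**Figure D3:**
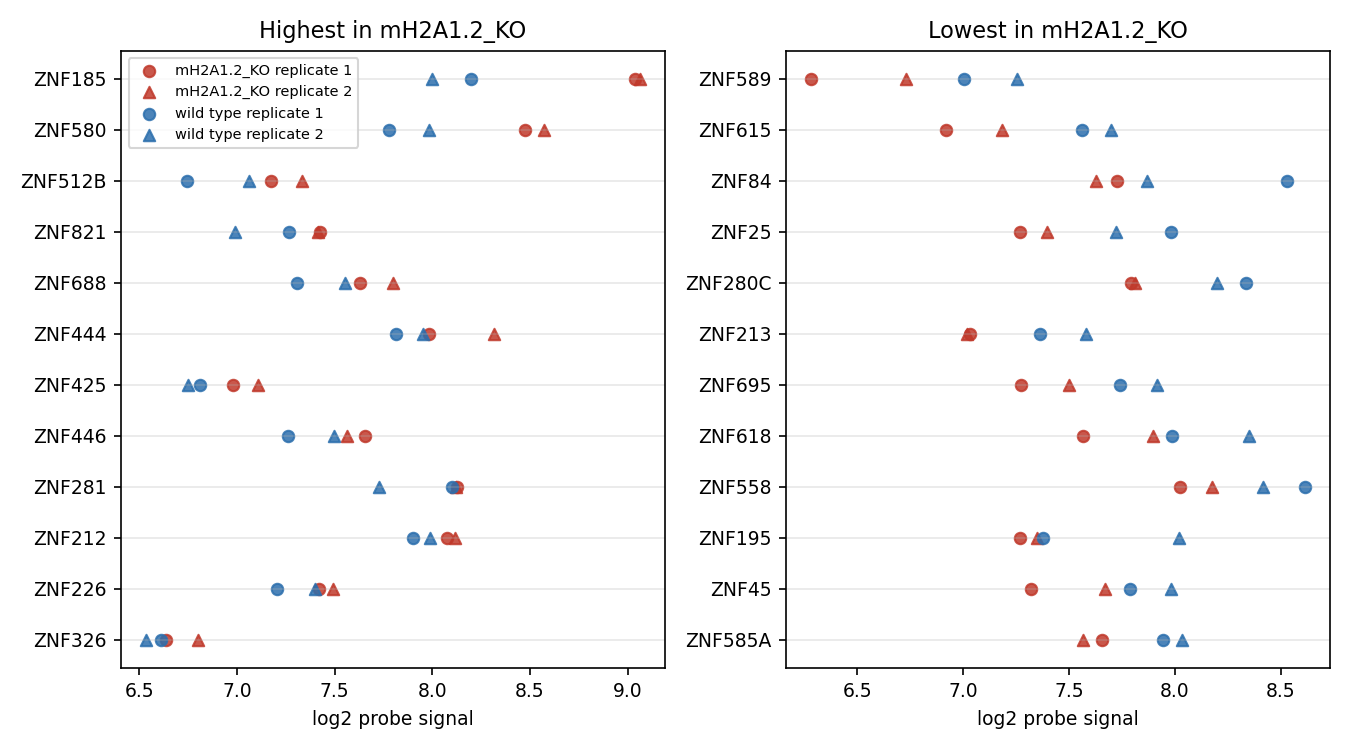
Log2 probe signal (horizontal axis) on each of the 4 arrays for the 12 highest and the 12 lowest ZNF-named genes among those whose arrays do not overlap between groups. ZNF185 shows the widest gap, with 9.04 in mH2A1.2_KO replicate 1 against 8.20 in wild type replicate 1.

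Sequences upstream of 6 of these genes are shown because promoter windows of the family held some strings more or less often than the compared windows did. RefSeq promoter windows of GRCh38.p14, 250 bases before to 50 after the gene start, matched 238 of the 278 members. Searched on both strands, CCGGAAG, the core bound by ETS factors, occurred in 38.7% of member windows, where 14.2% of windows of protein-coding genes and 10.7% of all windows held it. TATAAA occurred in 2.10%, where 9.63% of protein-coding and 11.95% of all windows held it. CCAAT occurred in 46.2% of member windows against 36.4% of protein-coding and 35.7% of all windows, and ACTACAA, part of the site of ZNF143, in 7.14% against 3.14% and 2.95%. GGGCGG, the GC box, occurred in 63.9% against 58.5% and 44.6%, the NRF1 motif in 12.6% against 8.58% and 6.29%, and CACGTG in 6.30% against 8.88% and 7.43%. Each string was counted on its own, so a base could belong to matches of more than 1. Members had to be detected here, while the compared windows were not limited to detected genes. The part of detection in these contrasts was not tested.

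By direction, the ETS core was in 31.4% of the 70 windows of members lower without overlap. It was in 33.3% of the 15 windows of members higher without overlap, and in 42.5% of the 153 of overlapping members. In the same order the NRF1 motif was in 18.6%, 6.67% and 10.5%, and CCAAT in 40%, 46.7% and 49.0%. The GC box was in 61.4%, 66.7% and 64.7%, and ACTACAA in 7.14%, 13.3% and 6.54%. CACGTG was in 7.14%, 0% and 6.54%, and TATAAA in 1.43%, 0% and 2.61%. Of the 15 windows 1 makes 6.67%, and these splits were not tested. Below are the 250 bases before the start of the 2 highest and 2 lowest genes, and of the first 2 of the 12 lowest that hold the ETS core. Capitals mark matches to any of the 7 strings on either strand, and a match describes letters, not a bound site. ZNF185 lies at chrX:152914182-152914431 on the plus strand, ZNF580 at chr19:55640752-55641001 (plus), ZNF589 at chr3:48240854-48241103 (plus), ZNF615 at chr19:52008212-52008461 (minus), ZNF558 at chr19:8832305-8832554 (minus) and ZNF195 at chr11:3379147-3379396 (minus), each position being that of the stretch printed.
ZNF185: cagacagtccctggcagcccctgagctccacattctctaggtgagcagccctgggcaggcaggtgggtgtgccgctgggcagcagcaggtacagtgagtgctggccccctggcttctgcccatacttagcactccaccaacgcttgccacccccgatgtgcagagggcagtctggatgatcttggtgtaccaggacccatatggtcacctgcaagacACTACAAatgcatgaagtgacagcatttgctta
ZNF580: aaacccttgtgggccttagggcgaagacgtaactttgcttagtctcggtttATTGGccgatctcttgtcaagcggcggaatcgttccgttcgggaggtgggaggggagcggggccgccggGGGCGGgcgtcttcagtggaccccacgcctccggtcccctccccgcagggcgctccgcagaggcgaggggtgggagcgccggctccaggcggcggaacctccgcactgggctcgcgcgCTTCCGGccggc
ZNF589: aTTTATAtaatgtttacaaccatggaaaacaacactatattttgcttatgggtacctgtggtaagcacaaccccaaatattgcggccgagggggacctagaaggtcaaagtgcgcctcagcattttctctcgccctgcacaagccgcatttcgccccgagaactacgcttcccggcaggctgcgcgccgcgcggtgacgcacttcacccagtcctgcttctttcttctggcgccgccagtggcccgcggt
ZNF615: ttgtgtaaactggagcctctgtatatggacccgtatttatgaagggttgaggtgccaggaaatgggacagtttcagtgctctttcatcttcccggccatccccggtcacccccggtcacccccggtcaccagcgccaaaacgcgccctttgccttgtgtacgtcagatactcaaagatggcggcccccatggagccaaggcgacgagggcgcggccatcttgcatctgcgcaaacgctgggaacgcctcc
ZNF558: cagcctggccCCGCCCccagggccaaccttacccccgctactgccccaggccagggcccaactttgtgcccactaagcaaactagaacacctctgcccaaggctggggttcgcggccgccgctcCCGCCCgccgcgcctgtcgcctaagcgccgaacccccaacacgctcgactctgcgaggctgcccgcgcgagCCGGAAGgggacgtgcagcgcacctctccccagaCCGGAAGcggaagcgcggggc
ZNF195: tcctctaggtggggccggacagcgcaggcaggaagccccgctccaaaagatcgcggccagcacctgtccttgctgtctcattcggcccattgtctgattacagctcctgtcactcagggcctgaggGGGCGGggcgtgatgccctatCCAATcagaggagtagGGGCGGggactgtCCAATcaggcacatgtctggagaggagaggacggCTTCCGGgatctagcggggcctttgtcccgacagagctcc
The ZNF185 stretch stands apart in holding 3 CG pairs, where ZNF580 has 30 and ZNF558 has 26. Its 1 match is to ACTACAA. ZNF558 holds the ETS core at 2 places and ZNF580 and ZNF195 at 1 each, along with GC boxes, while ZNF615 holds 0 of the strings and ZNF589 only TATAAA.

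Chromosome 19 held 117 of the 278 members, and their values were close to those of members elsewhere. Of these 117, 86 were lower (73.5%), with a median difference of -0.087, and of the 161 on other chromosomes 105 were lower (65.2%), with a median of -0.083. Without overlap, 33 lay lower and 7 higher on chromosome 19, and 49 lower and 9 higher elsewhere. As shares these were 28.2% and 5.98% on chromosome 19 and 30.4% and 5.59% elsewhere, where 18.7% and 17.1% of all features lay so. The 616 features of chromosome 19 outside the family had 52.3% lower and a median of -0.010, with 15.1% lower and 15.3% higher without overlap. On the short arm 25 of 31 members were lower (median -0.097, 7 lower and 0 higher without overlap), and on the long arm 61 of 86 (median -0.075, 26 lower and 7 higher). Arms were taken as the 2 sides of the widest gap between annotated genes. The chromosome 19 median was 0.054 in the undisputed pair.

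**Figure D4:**
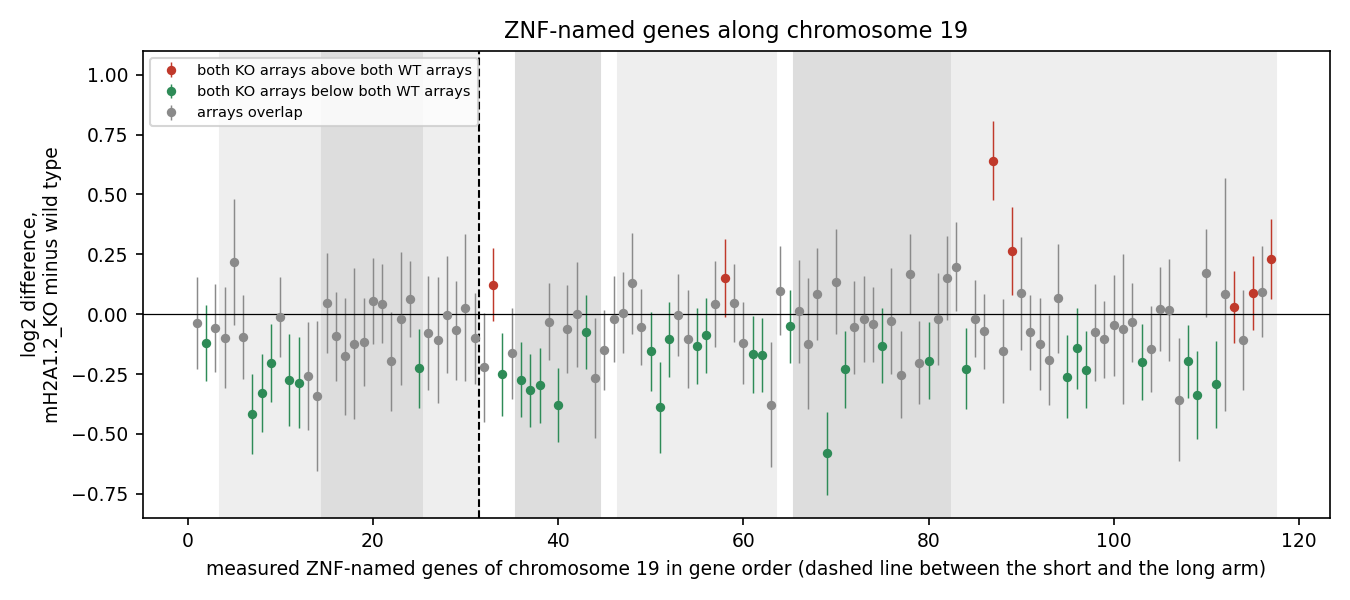
Log2 difference (vertical axis, mH2A1.2_KO minus wild type, bars are the standard error of the limma fit) of the 117 measured ZNF-named genes of chromosome 19 in gene order, with shading for clusters of 5 or more measured members. Points below 0 are spread along both arms (86 of 117), with the ZNF565 to ZNF573 cluster of the long arm wholly below 0.

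Clusters were runs of annotated ZNF genes with no gap over 1000000 bases between gene starts, and 12 of them had 5 or more measured members. Over all features 52% were lower, and 18.7% lay lower and 17.1% higher without overlap. The 2 lowest medians were both on chromosome 19. In the cluster from ZNF565 to ZNF573 on the long arm 9 of 9 members were lower, 5 without overlap (55.6%), with a median of -0.27. It holds ZNF585A and ZNF146, a factor made almost only of zinc fingers and known to be overexpressed in some tumours, which had 9.62 and 9.53 in mH2A1.2_KO, against 9.89 and 9.89 in wild type (-0.32 ± 0.15). In the cluster from ZNF557 to ZNF846 on the short arm 10 of 11 were lower, 5 without overlap (45.5%), with a median of -0.26. ZNF558 was its lowest member, while ZNF562 rested on mH2A1.2_KO replicate 1 (7.80 and 8.72 in mH2A1.2_KO, against 8.48 and 8.72 in wild type) and measured 0.12 without it. Between the undisputed pair the first cluster had 6 of 9 lower (median -0.16) and the second 9 of 11 (median -0.084). Of all features 48.8% were lower in that pair. The lack of overlap fixed that direction for 5 members of each cluster.

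The largest cluster, from ZNF628 to ZNF446 at the end of the long arm, held members with differences from -0.36 to 0.64. Of 35 members 22 were lower and 13 higher, with a median of -0.071. Without overlap 8 lay lower (22.9%) and 5 higher (14.3%), near the shares of all features (18.7% and 17.1%). In the undisputed pair 13 were lower and 22 higher, with a median of 0.10. It holds ZNF580, ZNF444 and ZNF446 among the higher genes. The cluster from ZNF48 to ZNF267 on chromosome 16 was the 1 of the 12 with a positive median, 0.13, with 4 of 7 members higher, among them ZNF688 and ZNF629 (0.30 ± 0.24, and 0.022 without wild type replicate 1). Without overlap 1 member of this cluster lay higher (14.3%) and 2 lower (28.6%), where 17.1% and 18.7% of all features did. The cluster's median was 0.38 in the undisputed pair. The other 8 clusters, on chromosomes 7, 8, 12, 16 and 19, had medians from -0.13 to -0.041, and from -0.024 to 0.18 in the undisputed pair. Of these, the cluster from ZNF605 to ZNF268 on chromosome 12 had 5 of 6 members lower (median -0.096). In it 4 lay lower without overlap (66.7%), the largest such share of the 12 clusters. In the undisputed pair 4 of its 6 members were lower, a direction that the lack of overlap fixed. On chromosome 7 ZNF775 measured -0.35 ± 0.15, in the cluster that also holds ZNF467 (0.64 ± 0.37). ZNF7 of chromosome 8 measured -0.24 ± 0.19, and -0.066 without mH2A1.2_KO replicate 1.

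Members with well described roles were taken from a list of 34, of which 26 were measured, 15 lower and 11 higher. Arrays did not overlap for 7 lower (26.9%) and 4 higher (15.4%), where 18.7% and 17.1% of all features did not. In the undisputed pair 12 were lower and 14 higher. ZNF274 recruits SETDB1 to the ends of other ZNF genes, where it marks them with histone methylation. It had 8.53 and 8.85 in mH2A1.2_KO, against 8.92 and 9.05 in wild type, a difference of -0.29 ± 0.18, and its second probe gave -0.11 ± 0.18. Without mH2A1.2_KO replicate 1 it was -0.13. ZNF143, an activator of many housekeeping and small RNA promoters, measured 8.30 and 8.56 in mH2A1.2_KO, against 8.74 and 8.64 in wild type (-0.26 ± 0.17), and its difference was likewise -0.13 without that array.

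ZNF593, a ribosome biogenesis factor, measured 10.57 and 10.43 in mH2A1.2_KO, against 10.76 and 10.76 in wild type (-0.26 ± 0.16). ZNF598, a ubiquitin ligase that marks collided ribosomes, measured 9.70 and 9.71 in mH2A1.2_KO, against 9.95 and 9.98 in wild type (-0.26 ± 0.15). These 2 had replicates close together, while the dimmer probe of ZNF598 gave 0.012 ± 0.178. ZNF384 (-0.26) and ZNF10 (-0.14), whose KRAB domain is widely used as a repressor in engineered proteins, were also lower without overlap. ZNF384 was -0.11 without mH2A1.2_KO replicate 1 and ZNF10 -0.050 without wild type replicate 2. ZNF217, an oncogene of breast and other cancers, gave 0.13 ± 0.16, and 0.046 without mH2A1.2_KO replicate 1. The 15 list members whose arrays overlapped lay between -0.23 and 0.31. Among them were ZNF91, a repressor of SVA retrotransposons (-0.10 ± 0.19), and ZNF207, a spindle assembly factor (0.091 ± 0.295). The direction of both turned when 1 array was left out. ZNF430, 1 of the 8 members with the brightest probes, gave -0.068 ± 0.206 and its direction turned as well.

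Genes of the machinery that KRAB zinc fingers act through had a median near 0. Of 24 listed genes of the TRIM28, SETDB1, HP1 and related complexes 21 were measured, 9 higher and 12 lower, with a median of -0.0082. Of these, 0 passed limma's test, where 0% of all features did, or had an unadjusted p under 0.05, where 7.73% did. Arrays did not overlap for 7 lower (33.3%) and 2 higher (9.52%), where 18.7% and 17.1% of all features did not. In the undisputed pair 11 were lower and 10 higher. TASOR, a subunit of the HUSH silencing complex, measured -0.39 ± 0.23, and UHRF1, which maintains DNA methylation, -0.38 ± 0.22. SMARCAD1, a remodeler that binds TRIM28, measured 7.84 and 7.91 in mH2A1.2_KO, against 8.23 and 8.23 in wild type (-0.35 ± 0.15). CBX5, the gene of an HP1 protein, measured 8.85 and 8.83 in mH2A1.2_KO, against 8.44 and 8.51 in wild type (0.36 ± 0.15). TASOR was -0.10 without wild type replicate 1, and UHRF1 -0.14 without wild type replicate 2.

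Other zinc finger families were small. Of 28 measured ZBTB genes, which pair a BTB domain with C2H2 fingers, 21 were lower (75%), where 52% of all features were. Their median was -0.083, although ZBTB4, which binds methylated DNA, gave 0.55 ± 0.17. Of 11 ZFP genes 10 were lower, with a median of -0.12 and ZFP82 lowest at -0.42 ± 0.24 (-0.17 without mH2A1.2_KO replicate 1). In the undisputed pair 19 of 28 ZBTB and 5 of 11 ZFP genes were lower, and ZFP82 measured 0.042. ZSCAN genes were lower for 3 of 8, ZKSCAN genes for 2 of 5 and KLF genes, short factors of the Krüppel type, for 2 of 6. None of these 58 genes passed limma's test at an adjusted p under 0.05, where 0% of all features did. At an unadjusted p under 0.05 there was 1 (ZBTB4), where 7.73% of all features passed.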

How the data were processed

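Per the labels' protocols, column-purified total RNA of 4 samples was labelled as biotinylated cRNA and hybridised to Illumina arrays of 1 colour, and GenomeStudio is named in the submitters' processing notes. The authors deposited raw intensity for 47230 probes, beside a detection p-value for every probe. The authors also deposited 43957 rows of normalized values, 43893 of them filled, which lie on a log2 scale. Their normalization is not stated in the sources used here.

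Over 8096 bright probes (mean log2 signal above 8.5), centred per probe, every raw array matched 1 normalized column (correlation at least 0.997, next highest 0.0235), and the raw header named 2 of the arrays otherwise. Normalized values were quantile normalized across arrays. The 16950 probes detected (p-value under 0.01) on 2 or more arrays were kept, named through the platform annotation with symbols updated by gene ID, and reduced to the brightest per gene (13786 features, 10673 named). limma 3.58.1 in R 4.3.3 (lmFit, eBayes, two-sided, 2 residual and 4.1 prior degrees of freedom) compared the groups, at a threshold of 0.05 after Benjamini-Hochberg adjustment across all features. The limma fit was also run on simulated data with planted changes larger than the difference of any member. That run does not show how often smaller differences would be found. Standard errors are the moderated ones. Precision is limited by the number of arrays. Of all probes 35.8% and 35.9% were detected on the mH2A1.2_KO arrays and 38.9% and 35.4% on the wild type arrays. The level of 1 probe is not comparable with that of another, and a probe of a duplicated gene may also read its near copies, which was not tested.

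The members, lists and alternatives were chosen with earlier results of these data known. The rule for named genes takes MACROH2A1, the 12 highest and 12 lowest members without overlap, the 8 with the brightest probes, 2 per cluster, a list of 34 members with known roles, and up to 4 per other list. Fewer are named here, a narrowing made after values were seen. Classes by protein domain were not analysed here. Alternatives were other normalizations, filters, probe rules and variance models, a replicate block, leaving out each array, and the array names of the raw header.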

Additional observations from a re-analysis of the deposited data

How the results depend on the processing

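No ZNF gene passed the test without quantile normalization, with neqc on the raw signals, with other detection filters, with the mean over probes, with a trend and robust variance, without any 1 array or with the raw header's names. At an unadjusted p under 0.05, limma gave 7 lower and 2 higher members, 3.24% together, where 7.73% of all features passed. With neqc 13 were lower (5.4% in both directions together, where 7.63% of all features passed). With no detection filter 19 of 472 were lower (4.66% together, where 5.85% of all features passed). With the mean over probes 1 was higher (2.88% together, where 7.64% of all features passed). With the raw header's names 4 were lower and 20 higher (8.63%, where 14% of all features passed). Leaving out 1 array gave 0 to 13 lower and 2 to 9 higher (0.719% to 6.47%, where 2.78% to 14.7% of all features passed). Arrays did not overlap for 124 lower and 40 higher of 472 genes with no detection filter (17.5% and 16.8% of all features) and for 28 lower and 100 higher with the raw header's names (22.8% and 24.8%). With 3 arrays, where overlap is rarer by construction, the range was 101 to 158 lower and 29 to 72 higher (30.9% to 38.7% and 28.8% to 37.0% of all features). The median of the ZNF genes was 0.129 with the raw header's names and 0.0363 for the 2 arrays both tables place alike, and that of chromosome 19 was 0.166 and 0.0542. Without 1 array they ran from -0.155 to -0.018 and from -0.167 to -0.013. MACROH2A1 measured -0.487 with the mean over probes, -0.12 with the raw header's names, -1.19 on the 2 arrays placed alike, -1.12 without wild type replicate 2, where it passed the test, and from -1.14 to -0.99 without 1 array.

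When the fit had a replicate block, with arrays of 1 number as a pair, 3 of 278 ZNF genes passed limma's test (ZNF185, ZNF580 and ZNF589). MACROH2A1 (-1.07) passed as well, and 425 of 13786 features did in all. In that fit 27 lower and 5 higher members had an unadjusted p under 0.05, 11.5% together, where 17.4% of all features did. Same-numbered arrays deviated together from their group means (correlation 0.575 over all features and 0.26 over the ZNF genes). No label states that a number marks a pair.

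With the raw header's names, which exchange 2 arrays, the sign turned for ZNF185 (-0.086), ZNF821 (-0.14), ZNF281 (-0.19), ZNF217 (-0.088), ZNF467 (-0.81), ZNF589 (0.35), ZNF615 (0.20), ZNF213 (0.10), ZNF695 (0.20), ZNF618 (0.35), ZNF195 (0.36), ZNF45 (0.27), ZNF585A (0.00021), ZNF274 (0.23), ZNF598 (0.017), ZNF143 (0.080), ZNF384 (0.23), ZNF10 (0.13), ZNF562 (0.58), ZNF91 (0.25), ZNF430 (0.057), ZNF775 (0.054), ZNF7 (0.28), ZNF48 (0.037), ZNF525 (0.13), ZNF697 (0.16), UHRF1 (0.36), SMARCAD1 (0.041) and ZFP82 (0.47). Those names split the arrays by replicate number, where signs can turn often whatever the group differences. Without 1 array the difference ran from -0.80 to 0.12 for ZNF562, -0.30 to 0.098 for ZNF91, -0.32 to 0.50 for ZNF207 and -0.27 to 0.13 for ZNF430. With neqc ZNF326 measured -0.013. On the 2 arrays placed alike the sign also turned for ZNF467 (-0.17), ZNF562 (0.24), ZNF91 (0.14), ZNF7 (0.045) and ZFP82 (0.042). There 35 of 51 named genes moved by more than 1 SD of their replicates. With 2 arrays per group this happens whenever both replicate differences share a sign, so the count does not measure how far genes moved. The causes were not tested.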
